A study of Mus musculus with 12 samples.

Results

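TRBJ2-1, TRBJ2-2, TRBJ2-3, TRBJ2-4 and TRBJ2-5 are 5 joining (J) segments of the second D-J-C cluster of the mouse T cell receptor (TCR) beta locus, and they are described here across T cells that lacked or carried the metabolic sensor AMPK. A clonotype, which is a distinct TCR beta sequence in a library, was counted for a segment when that segment was its best J hit. The 5 segments held 53898 of the 113665 clonotypes deposited for all libraries (47.4%), with 11333 for TRBJ2-1, 5739 for TRBJ2-2, 10414 for TRBJ2-3, 12897 for TRBJ2-4 and 13515 for TRBJ2-5.

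CD4+ T cells came from C57BL/6 mice whose gene for the AMPK catalytic subunit alpha 1 was flanked by loxP sites, either without Cre (WT, PRKAA1fl/fl) or with Cre under the CD4 promoter (KO), which acts in developing thymocytes, so that CD8 cells of the donors would lose the gene too. Naive cells were transferred into Rag2-/- recipients, which have no T or B cells of their own and develop colitis, and donor T cells were taken from the spleen and the mesenteric lymph nodes (mLN) of each recipient after 6 weeks. The 12 libraries therefore fall into 4 groups of 3: spleen and mLN of WT replicates 1, 3 and 4 and of KO replicates 1, 2 and 3. WT and KO mice were littermates, and mice were 6 to 8 weeks old when used, unless stated otherwise for an experiment. Neither Prkaa1 nor a marker that separates CD4+ from CD8+ cells can be read from TCR beta sequences, so the genotype and the cell type rest on the labels.

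A TCR beta chain is assembled in the thymus by joining 1 of many V segments to a D and a J segment, with bases trimmed from the ends and others added between them. The third complementarity-determining region (CDR3), which spans this junction, contacts the antigen peptide. The locus holds TRBD1 with the TRBJ1 segments and, downstream, TRBD2 with the TRBJ2 segments, so that TRBD1 can join either J cluster whereas TRBD2 joins the TRBJ2 cluster. The J segment gives the last bases of the CDR3 and the framework that follows it. In a T cell population, the usage of a J segment reflects both how often it was joined and how far the cells that carry it have expanded.

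The germline J segments are shown first because every later comparison of length, trimming and sequence ends refers to them. On chromosome 6 of GRCm38.p6 (RefSeq annotation, plus strand), they lie at chr6:41542754-41542803 (TRBJ2-1), chr6:41542957-41543007 (TRBJ2-2), chr6:41543223-41543271 (TRBJ2-3), chr6:41543362-41543410 (TRBJ2-4) and chr6:41543453-41543501 (TRBJ2-5), each annotated as a J gene segment of a single exon. TRBJ2-1 starts 577 bases and TRBJ2-5 1276 bases after the end of TRBD2. In the sequences, the capitals mark the last 9 bases of the part that can enter a CDR3, and the bases after them code for framework.
TRBJ2-1: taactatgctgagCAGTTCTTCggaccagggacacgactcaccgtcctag
TRBJ2-2: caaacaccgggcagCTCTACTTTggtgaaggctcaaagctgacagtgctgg
TRBJ2-3: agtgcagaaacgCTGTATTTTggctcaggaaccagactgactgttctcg
TRBJ2-4: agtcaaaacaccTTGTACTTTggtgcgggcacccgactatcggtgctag
TRBJ2-5: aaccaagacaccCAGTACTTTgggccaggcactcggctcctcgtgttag

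The CDR3 part of the germline segment measured 22 bases in TRBJ2-1, 23 in TRBJ2-2 and 21 in each of TRBJ2-3, TRBJ2-4 and TRBJ2-5, against 19 in TRBJ2-7, the remaining functional segment of the cluster. TRBJ2-2 and TRBJ1-6 share the same 9-base end. The ends of TRBJ2-1 and TRBJ2-5 each differ from that of TRBJ2-7 at a single position. So do those of TRBJ2-2 and TRBJ2-3 from that of TRBJ1-3. Of the 53898 clonotypes, 218 (0.404%) listed more than 1 J hit. Counts for these segments can therefore include some clonotypes of a near-identical neighbour, but few were ambiguous by the listed hits.

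Directly before each J segment lies its recombination signal, the site that the RAG recombinase recognises, made of a nonamer of 9 bases, a spacer of 12 and a heptamer of 7. These 28 bases are shown because the 5 segments differ in them. The nonamer and the heptamer are in capitals.
TRBJ2-1: GAATTCTTGgtagcccttttcTGCTGTG
TRBJ2-2: GGTTTGTGCcagcatttccagGACTGTG
TRBJ2-3: AGTTTTTGTcctgagcctggaGGCTGTG
TRBJ2-4: AGTTTTTGTcctgtaccaagaGGCTGTG
TRBJ2-5: AGTTTTTGTgttgggttctggGGCTGTG
Against the common forms GGTTTTTGT and CACTGTG, the nonamer matched at 8 of 9 positions in TRBJ2-3, TRBJ2-4 and TRBJ2-5, at 7 in TRBJ2-2 and at 4 in TRBJ2-1, and the heptamer at 6 of 7 in TRBJ2-2 and at 5 in each of the others. The letters GTTTTTGT followed by any 14 bases and CTGTG were present before 3 of the 5 segments (TRBJ2-3, TRBJ2-4 and TRBJ2-5) and, on either strand, in 3 of 32851 mouse promoter windows of 300 bases (0.00913%). These letters are common to the 3 signals as printed above, so the match is a description of letters and no test of enrichment. TRBJ2-1, with the fewest nonamer matches of the 5, had the highest mean share of UMIs among them. By clonotypes, at 10.4%, it stood behind TRBJ2-5 (12.4%) and TRBJ2-4 (10.7%). A link between signal and usage was not tested.

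Library depth differed widely, from 2488 to 493287 unique molecular identifiers (UMIs, each standing for a cDNA molecule) and from 283 to 31379 clonotypes. The smallest, the mLN library of KO replicate 3, gave the widest 95% Wilson interval of any of the 5 segments, ± 1.72 percentage points for TRBJ2-1. A count of 0 would allow a share of up to 0.121% there and 0.000608% in the largest library. The libraries also differed in how many clonotypes of a single UMI ended in bases other than the germline J end, 2.42% to 5.85% in 5 libraries (both of WT replicate 1, both of KO replicate 1 and the mLN of KO replicate 3) and 26.1% to 38.3% in the other 7, and the 2 kinds do not overlap in depth (2488 to 64882 against 68536 to 493287 UMIs). A share of UMIs reflects cell number and TCR RNA per cell together, which cannot be told apart. Intervals cover counting error only.

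To see how much of the repertoire the segments formed, their shares were first summed in each library. Together they held 40.2% to 60.1% of UMIs and 43.4% to 51.3% of clonotypes. By group, the summed share of UMIs was 44.7% ± 6.81 in WT and 49.6% ± 2.07 in KO spleen, and 51.9% ± 7.04 in WT and 51.3% ± 7.68 in KO mLN (mean ± SD, n = 3 each). The ranges of WT and KO overlapped in both organs.

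Over the 6 mice, with the spleen and mLN of a mouse averaged, 4 of the 5 segments stood close together near the top of the order of 12 J segments and TRBJ2-2 stood apart near its lower end. Mean shares of UMIs were 13.04% ± 5.36 for TRBJ2-1, 11.2% ± 1.69 for TRBJ2-5, 10.5% ± 3.08 for TRBJ2-4, 9.87% ± 3.50 for TRBJ2-3 and 4.80% ± 1.40 for TRBJ2-2 (SD, n = 6). Only TRBJ2-7 ranked above TRBJ2-1, with 18.2% ± 5.20, and TRBJ1-1 (11.4% ± 3.33) lay between TRBJ2-1 and TRBJ2-5. TRBJ2-2 came between TRBJ1-2 (4.97% ± 2.58) and TRBJ1-6 (2.69% ± 1.05). Within the 5, TRBJ2-2 was the lowest in 12 of 12 libraries, both by UMIs and by clonotypes, whereas the highest by UMIs was TRBJ2-1 in 5, TRBJ2-4 in 4 and TRBJ2-3 in 3 libraries.

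No pair of neighbours in this order passed the test. Of the 11 neighbouring pairs, 0 passed an adjusted p of 0.05 (0% called), and 0 had an unadjusted p under 0.05, by a two-sided exact sign-flip test over 6 mice. The smallest p this test can give is 0.03125, and at least 7 pairs would have to reach it for an adjusted call. The widest gaps next to a member were 5.18 ± 2.57 percentage points (SE, n = 6) between TRBJ2-7 and TRBJ2-1 (exact p = 0.0938, adjusted p = 0.344, higher for TRBJ2-7 in 5 of 6 mice) and 3.75 ± 1.42 percentage points (SE, n = 6) between TRBJ2-3 and TRBJ1-3 (exact p = 0.0625, adjusted p = 0.344, higher for TRBJ2-3 in 5 of 6). Among the members, TRBJ2-5 exceeded TRBJ2-4 by 0.745 ± 1.25 percentage points (SE, n = 6) and TRBJ2-4 exceeded TRBJ2-3 by 0.598 ± 1.82 percentage points (SE, n = 6), each in 4 of 6 mice.

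Counting each clonotype once narrowed the spread and changed the order of the members. TRBJ2-5 then came first among them, with 12.4% ± 0.950 of clonotypes, followed by TRBJ2-4 (10.7% ± 1.60), TRBJ2-1 (10.4% ± 1.43), TRBJ2-3 (9.62% ± 1.24) and TRBJ2-2 (5.30% ± 0.708, SD, n = 6). Across the 12 libraries, the coefficient of variation of TRBJ2-1 fell from 45.8% by UMIs to 13.5% by clonotypes, and that of TRBJ2-5, the steadiest of the 5, from 16.3% to 8.77%. TRBJ2-5 was the most frequent of the 5 by clonotypes in 7 of 12 libraries and by UMIs in 0.

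**Figure D1:**
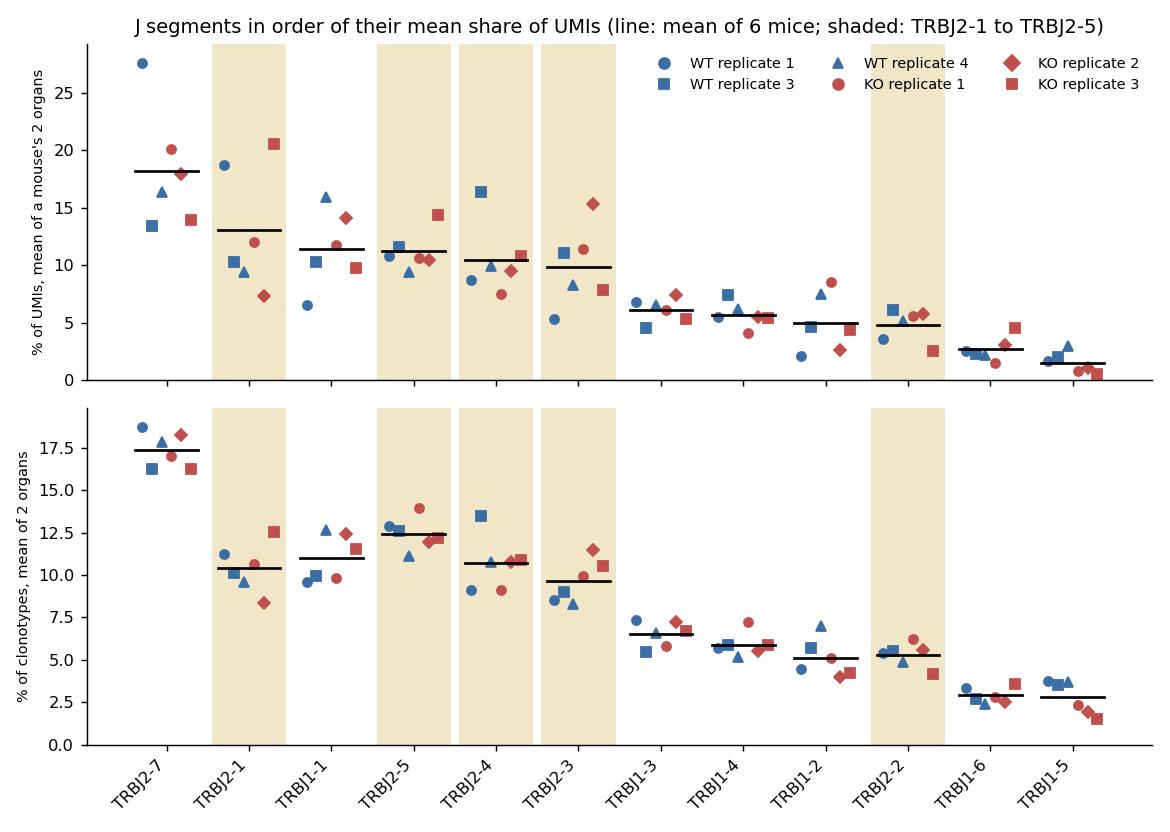
Share of each of 12 J segments by mouse, as % of UMIs (top) and % of clonotypes (bottom), each point the mean of a mouse's spleen and mLN library, in order of the mean share of UMIs. The 4 members TRBJ2-1, TRBJ2-5, TRBJ2-4 and TRBJ2-3 have means between 9.87% and 13.04% of UMIs, TRBJ2-2 lies at 4.80%, and the points of each member lie closer together by clonotypes.

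To investigate whether loss of AMPK changed the usage of these segments, KO and WT libraries were compared within each organ. None of the 5 passed the test on UMIs, although TRBJ2-3 was higher in KO spleens by 0.68 ± 0.41 (SE) on the log2 scale, the largest value of the 5 in either organ. In the spleen, 1 of the 12 J segments tested passed an adjusted p of 0.05 by edgeR's quasi-likelihood test (8.33% called), which was TRBJ1-5, lower in KO by a log2 fold change of -1.47 ± 0.36 (SE) with an adjusted p of 0.00227. In the mLN, 0 of 12 passed (0% called), with 1 at an unadjusted p under 0.05, and DESeq2 also called 0. The difference between the genotype effects of the 2 organs passed for 0 of the 12 segments by edgeR (0% called, 0 at an unadjusted p under 0.05, and 0 by DESeq2). Among the members, the difference of the effects (mLN less spleen) ran from -0.46 for TRBJ2-3 to 0.08 for TRBJ2-5 on the log2 scale. That of TRBJ2-3 turned to 0.11 by clonotypes and to 0.22 by clonotypes of at least 2 UMIs with a germline J end.

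Of spleen UMIs, TRBJ2-3 made up 4.77%, 9.99% and 7.59% in WT replicates 1, 3 and 4 and 11.4%, 14.5% and 9.90% in KO replicates 1, 2 and 3. Each KO spleen exceeded WT replicates 1 and 4, and KO replicate 3 lay just below WT replicate 3. The means were 7.45% ± 2.61 (SD, n = 3) in WT and 11.9% ± 2.37 (SD, n = 3) in KO, with an edgeR adjusted p of 0.612. DESeq2, run as an alternative, gave a log2 fold change of 0.64 and an adjusted p of 0.0291, and called 2 of 12 segments (16.7% called). KO was also higher within both kinds of library, by 6.61 percentage points with few unusual ends (1 library each) and by 3.43 with many (2 each), and the part that the kind of library had in the difference was not tested.

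Of mLN UMIs, TRBJ2-3 made up 5.88%, 12.1% and 8.92% in WT replicates 1, 3 and 4 and 11.5%, 16.2% and 5.71% in KO replicates 1, 2 and 3. The groups overlapped, since KO replicate 3, the smallest library, had the lowest and KO replicate 2 the highest share. The log2 fold change was 0.31 ± 0.45 (SE) with an edgeR adjusted p of 0.910, and it turned to -0.06 without KO replicate 2.

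By clonotypes, TRBJ2-3 was the member that separated the mLN groups. Its share was 8.71%, 8.99% and 8.74% in WT replicates 1, 3 and 4 and 11.0%, 12.04% and 11.3% in KO replicates 1, 2 and 3. All 3 KO values lay above all 3 WT values, and for each of the other 4 members the groups overlapped in both organs. Among all 12 J segments, only TRBJ1-5 also had mLN groups that did not overlap by clonotypes. It was lower in KO (1.41% to 2.41%) than in WT (3.49% to 3.75%). The test on clonotypes in place of UMIs gave TRBJ2-3 a log2 fold change of 0.39 with an edgeR adjusted p of 0.0263 and called 2 of 12 segments (16.7% called). With any of 5 of the 6 mice left out, the adjusted p rose above 0.05, up to 0.113, and without KO replicate 1 it was 0.0173, with log2 fold changes between 0.33 and 0.43. Kept to clonotypes of at least 2 UMIs with a germline J end, the difference shrank to 0.20 on the log2 scale with an edgeR adjusted p of 0.234. In the spleen, the shares of clonotypes were 8.31%, 8.97% and 7.85% in WT replicates 1, 3 and 4 and 8.91%, 10.8% and 9.77% in KO replicates 1, 2 and 3, which differed by 0.24 on the log2 scale over all clonotypes (edgeR adjusted p = 0.820) and 0.01 over those of at least 2 UMIs.

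TRBJ2-1 had the widest spread of the 5. Its share of spleen UMIs was 15.1%, 10.3% and 9.28% in WT replicates 1, 3 and 4 and 15.1%, 8.34% and 15.2% in KO replicates 1, 2 and 3. Its share of mLN UMIs was 22.3%, 10.2% and 9.54% in WT replicates 1, 3 and 4 and 8.84%, 6.27% and 25.9% in KO replicates 1, 2 and 3. The mLN of WT replicate 1 and of KO replicate 3 stood far above the other 4, which lay at or under 10.2%. Log2 fold changes of KO against WT were 0.16 ± 0.42 (SE) in the spleen and -0.04 ± 0.62 (SE) in the mLN, with edgeR adjusted p of 0.983 and 0.947.

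TRBJ2-2 was low throughout, and its shares of spleen UMIs were 3.72%, 6.97% and 4.66% in WT replicates 1, 3 and 4 and 4.65%, 6.08% and 3.18% in KO replicates 1, 2 and 3. Its mLN shares were 3.54%, 5.32% and 5.63% in WT replicates 1, 3 and 4 and 6.50%, 5.36% and 1.93% in KO replicates 1, 2 and 3. KO replicate 3 had the lowest share in both organs, and 48 UMIs stood behind it in the mLN (95% Wilson interval 1.46% to 2.55%). Log2 fold changes were -0.14 ± 0.38 (SE) and -0.06 ± 0.48 (SE) in spleen and mLN (edgeR adjusted p = 0.983 and 0.947).

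Of spleen UMIs, TRBJ2-4 made up 7.51%, 14.1% and 9.72% in WT replicates 1, 3 and 4 and 6.96%, 10.05% and 10.9% in KO replicates 1, 2 and 3. Of mLN UMIs, it made up 9.96%, 18.5% and 10.2% in WT replicates 1, 3 and 4 and 8.02%, 8.93% and 10.7% in KO replicates 1, 2 and 3. WT replicate 3 was the highest of the 6 mice in both organs. The KO mean was lower in both, by a log2 fold change of -0.17 ± 0.41 (SE) in the spleen and -0.49 ± 0.32 (SE) in the mLN, and neither passed the test (edgeR adjusted p = 0.983 and 0.706). Without WT replicate 3 the spleen value was 0.11 and the mLN value -0.14.

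TRBJ2-5 varied least, and its shares of spleen UMIs were 10.2%, 11.2% and 8.97% in WT replicates 1, 3 and 4 and 10.1%, 9.67% and 12.8% in KO replicates 1, 2 and 3. The mLN shares were 11.5%, 11.99% and 9.93% in WT replicates 1, 3 and 4 and 11.1%, 11.2% and 15.9% in KO replicates 1, 2 and 3. Log2 fold changes of KO against WT were 0.10 ± 0.40 (SE) in the spleen and 0.19 ± 0.25 (SE) in the mLN (edgeR adjusted p = 0.983 and 0.910), and the groups overlapped in both organs.

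**Figure D2:**
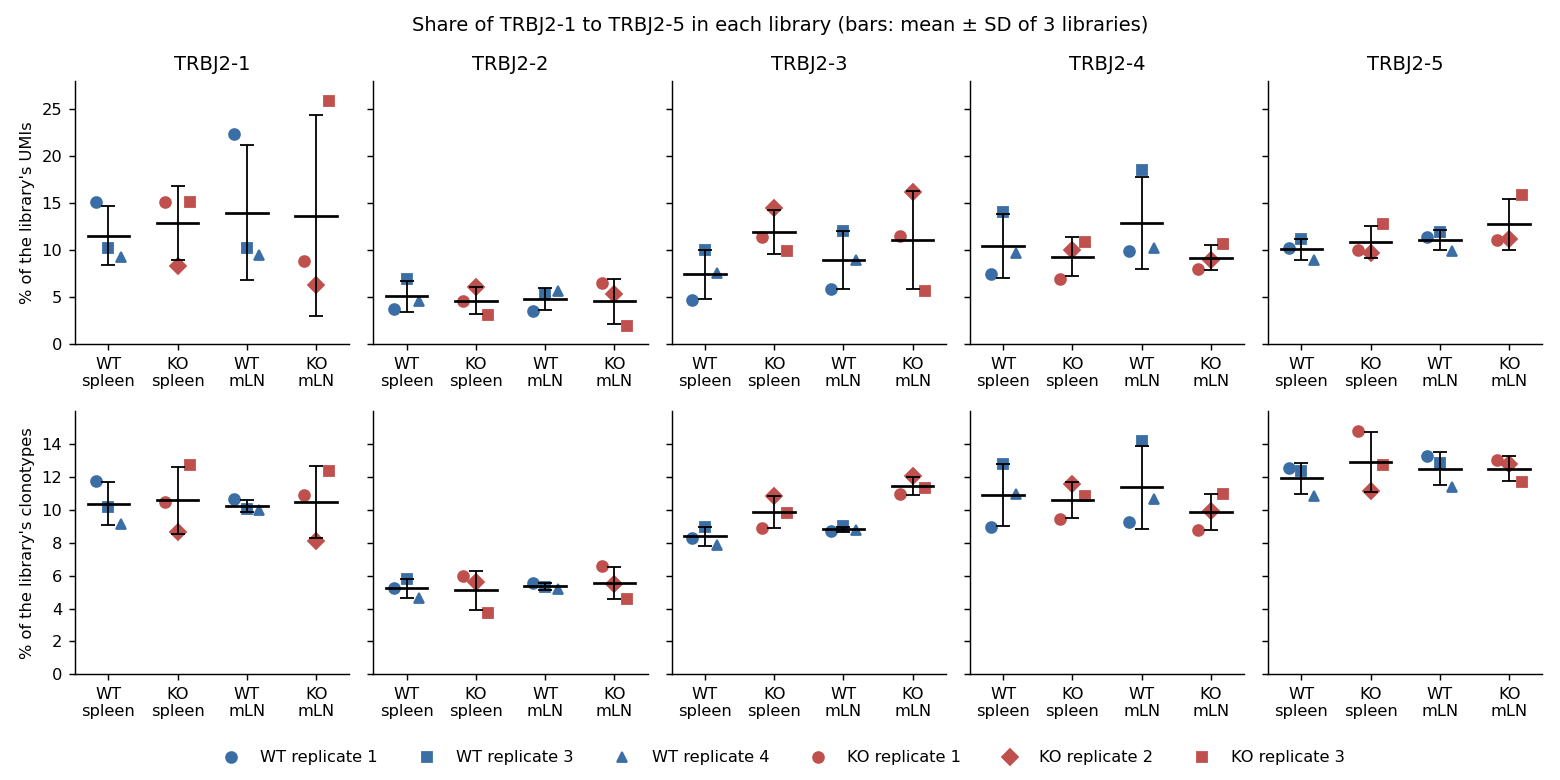
Share of the 5 J segments in each of the 12 libraries, as % of UMIs (top) and % of clonotypes (bottom), with 1 point per library and bars for the mean ± SD of the 3 libraries of a group. WT and KO points overlap in all panels except TRBJ2-3 by clonotypes in the mLN, where KO lies at 11.0% to 12.04% and WT at 8.71% to 8.99%.

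The 2 organs of a mouse were then compared. TRBJ2-5 was higher in the mLN than in the spleen in 6 of 6 mice, by 0.821 to 3.11 percentage points of UMIs, whereas each of the other 4 members was higher in the mLN in some mice and lower in others. With the mouse as a block, the log2 fold change of mLN against spleen for TRBJ2-5 was 0.18 ± 0.08 (SE) with an edgeR adjusted p of 0.302, so it did not pass, and 0 of 12 segments did (0% called, 1 at an unadjusted p under 0.05, 0 by DESeq2). That 1 segment was TRBJ2-7, at -0.39 (edgeR unadjusted p = 0.0354, against 0.0503 for TRBJ2-5). For the other members the log2 fold change was 0.03 (TRBJ2-1), -0.08 (TRBJ2-2), 0.04 (TRBJ2-3) and 0.15 (TRBJ2-4).

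Single expanded clonotypes formed a large part of a segment's UMIs. The largest clonotype of a member held between 6.66% and 58.4% of that member's UMIs in a library, with medians over 12 libraries from 13.9% (TRBJ2-5) to 20.8% (TRBJ2-2). For each member, the clonotype with the highest share in any mouse (mean of its organs) is shown by its CDR3, with the bases that match the germline J segment in capitals.
TRBJ2-1: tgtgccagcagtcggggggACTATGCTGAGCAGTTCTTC
TRBJ2-2: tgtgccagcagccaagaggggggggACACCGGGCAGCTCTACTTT
TRBJ2-3: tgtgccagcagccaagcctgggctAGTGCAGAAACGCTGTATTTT
TRBJ2-4: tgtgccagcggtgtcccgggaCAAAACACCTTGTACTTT
TRBJ2-5: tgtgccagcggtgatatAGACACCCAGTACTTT

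The TRBJ2-1 clonotype used TRBV26 and TRBD2 and was the largest of its library in both organs of KO replicate 3, with 12.8% of UMIs in the mLN (95% Wilson interval 11.5% to 14.2%) and 3.85% in the spleen (3.77% to 3.93%). It made up 49.3% of the TRBJ2-1 UMIs of that mLN. All other TRBJ2-1 clonotypes held 13.1% of all UMIs of that library, against 25.9% with it. The clonotype kept 20 of the 22 germline J bases.

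The TRBJ2-3 clonotype used TRBV5 and TRBD2, kept all 21 J bases and held 3.50% of mLN and 6.45% of spleen UMIs of KO replicate 1, where it made up 56.7% of the TRBJ2-3 UMIs of the spleen. The other TRBJ2-3 clonotypes held 4.93% of all UMIs of that spleen. In WT spleens, TRBJ2-3 without its largest clonotype held 3.97% to 7.08% of all UMIs. In the spleens of KO replicates 2 and 3 it held 12.6% and 8.20% in this way, both above every WT value. The TRBJ2-4 clonotype, with TRBV13-2 and TRBD1, was the largest of its library in both organs of WT replicate 3, at 7.18% of mLN and 4.33% of spleen UMIs. The other TRBJ2-4 clonotypes held 11.3% and 9.79% of all UMIs of these libraries. With the largest TRBJ2-4 clonotype of every WT library left out in this way, these were the highest WT values of their organ.

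The TRBJ2-2 clonotype of WT replicate 4, with TRBV5 and TRBD2, held 1.99% of mLN and 0.986% of spleen UMIs. The TRBJ2-5 clonotype of KO replicate 3 used TRBV13-2 with no D hit and a CDR3 of only 33 bases. It was uneven between the organs, with 5.67% of mLN UMIs (141 UMIs, 95% Wilson interval 4.83% to 6.65%) and 0.355% of spleen UMIs, where it ranked 53 among the clonotypes. The other TRBJ2-5 clonotypes of this mouse held 10.2% of all mLN UMIs and 12.5% of all spleen UMIs, so without it the organ difference ran the other way. Each of the 5 CDR3s was also listed in libraries of other mice, at no more than 0.0611% of UMIs. In all, 2.49% (TRBJ2-2) to 3.92% (TRBJ2-1) of a member's distinct in-frame CDR3s of at least 2 UMIs occurred in 2 or more mice, and for the other 7 segments 1.81% to 4.06%.

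The V segment partners of the members were compared next. Only in-frame clonotypes without a stop codon, of at least 2 UMIs and with the germline 9-base end were used. TRBV13-2 was the most frequent partner of TRBJ2-1 (11.5% ± 0.989 of its clonotypes), TRBJ2-4 (11.4% ± 1.57) and TRBJ2-5 (11.6% ± 2.24, SD, n = 6 mice). With all J segments other than TRBJ2-1, it held 11.1%. TRBV3 (9.17% ± 3.35) and TRBV31 (8.81% ± 0.918) followed for TRBJ2-1, TRBV3 (8.39% ± 1.11) and TRBV5 (8.36% ± 2.16) for TRBJ2-4, and TRBV5 (9.07% ± 1.23) and TRBV31 (8.999% ± 1.79) for TRBJ2-5. TRBJ2-3 was joined most often to TRBV31 (12.2% ± 2.56), TRBV3 (10.8% ± 3.82) and TRBV5 (9.996% ± 1.72). TRBJ2-2 led with TRBV1 (10.2% ± 4.22), TRBV31 (10.1% ± 3.16) and TRBV5 (10.1% ± 2.06). TRBV1 was more frequent with TRBJ2-2 than with the other J segments (6.72% ± 0.770) in 6 of 6 mice, from 7.57% to 18.7%, the latter in KO replicate 1. These pairings were not tested.

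The members differed in how much of the germline J segment remained in the CDR3. Among in-frame clonotypes without a stop codon, of at least 2 UMIs and with the germline 9-base end, 1183 (TRBJ2-2) to 2818 (TRBJ2-5) clonotypes per member were used, each counted once. TRBJ2-3 was kept whole most often, in 45.5% ± 4.64 (SD, n = 6) of its clonotypes, and TRBJ2-1 least often, in 10.8% ± 3.06 (SD, n = 6). TRBJ2-4 was whole in 37.4%, TRBJ2-2 in 26.4% and TRBJ2-5 in 16.3%. The ranges of TRBJ2-3 (40.9% to 52.9%) and TRBJ2-1 (5.69% to 15.0%) over 6 mice did not overlap.

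On average, 3.67 ± 0.308 (SD, n = 6) germline bases were lacking from TRBJ2-1, 3.31 ± 0.195 (SD, n = 6) from TRBJ2-5, 2.28 ± 0.309 (SD, n = 6) from TRBJ2-4, 2.23 ± 0.179 (SD, n = 6) from TRBJ2-2 and 1.51 ± 0.161 (SD, n = 6) from TRBJ2-3. The distribution had its own steps in each segment. In TRBJ2-1, 17.3% of clonotypes lacked 1 base, 5.90% lacked 2, 17.9% lacked 3 and 12.9% lacked 7, and only 1.23% lacked 8. In TRBJ2-5, 7.27% lacked 1 base, 15.5% lacked 2 and 15.8% lacked 6. An added base that happens to match the germline is counted as retained, which lowers the numbers lacking. Counting stopped at the first base that differed from the germline, so a base error within the J part would raise them. The size of either was not tested.

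**Figure D3:**
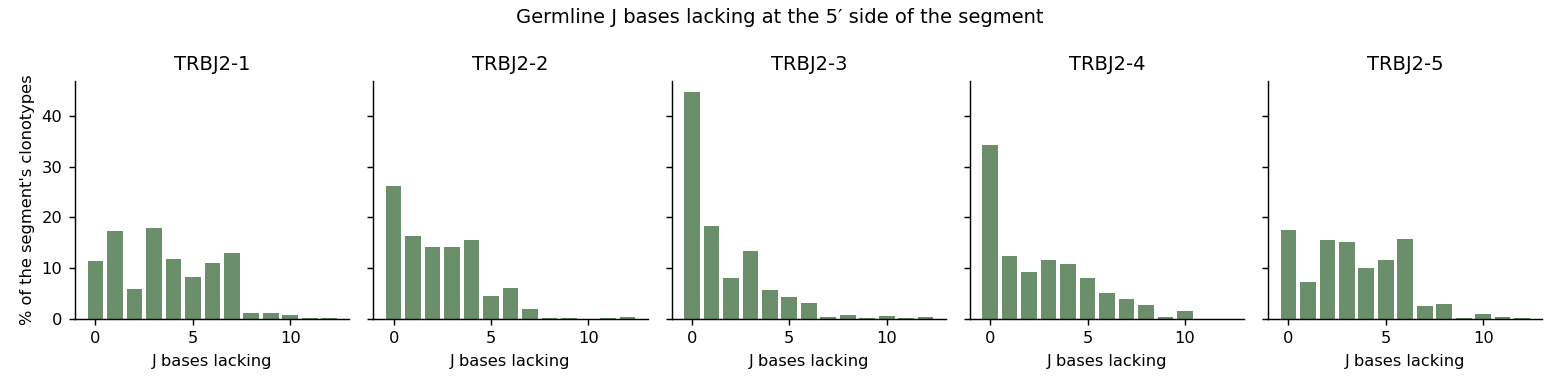
Percent of each member's clonotypes (all 12 libraries pooled, each clonotype counted once) that lack a given number of germline J bases at the V-facing side. The highest bar is at 0 bases in TRBJ2-2, TRBJ2-3, TRBJ2-4 and TRBJ2-5, with up to 44.7% in TRBJ2-3, and at 3 bases in TRBJ2-1, which has 11.3% at 0.

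Retained J bases did not pass the test between KO and WT mice for any segment (limma, 0 of 12, 0% called, 0 at an unadjusted p under 0.05). The largest difference of a member was in TRBJ2-3, with 19.4, 19.3 and 19.4 in WT replicates 1, 3 and 4 and 19.7, 19.5 and 19.6 in KO replicates 1, 2 and 3. All 3 KO mice lay above all 3 WT mice, by 0.253 ± 0.132 bases (SE, limma adjusted p = 0.372). Of the other segments among the 12, only TRBJ1-2 had groups that did not overlap (18.04 to 18.21 in WT, 18.22 to 18.49 in KO). TRBJ1-6 (0.590 bases) and TRBJ1-4 (0.336 bases) had larger mean differences, with overlap. For the other members the differences were between -0.00848 and 0.193 bases.

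Mean CDR3 length ran over a range of under 3 bases among the members. TRBJ2-2 gave the longest CDR3s of all 12 segments, at 43.6 ± 0.375 (SD, n = 6) bases, followed by TRBJ2-3 at 42.8 ± 0.311 (SD, n = 6). TRBJ2-1 stood at 42.0 ± 0.799 (SD, n = 6) and TRBJ2-4 at 41.9 ± 0.253 (SD, n = 6), and TRBJ2-5 was the shortest of the 5 at 41.1 ± 0.391 (SD, n = 6), still longer than TRBJ2-7 at 40.0 ± 0.453 (SD, n = 6). The bases before the J part varied less between members, from 22.8 in TRBJ2-2 to 23.7 in TRBJ2-1, while the retained J bases ran from 17.7 in TRBJ2-5 to 20.8 in TRBJ2-2.

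Against all other J segments of the same library, the CDR3 of TRBJ2-2 was longer by 2.25 ± 0.174 bases (SE, n = 6), that of TRBJ2-3 by 1.53 ± 0.128 bases (SE, n = 6) and that of TRBJ2-4 by 0.568 ± 0.109 bases (SE, n = 6), each in 6 of 6 mice. These 3 reached the smallest p that an exact sign-flip test over 6 mice allows (0.03125), as did 4 other segments, which gives an adjusted p of 0.0536 and no call (0 of 12, 0% called, 7 at an unadjusted p under 0.05). An adjusted p below 0.05 needs 8 segments at that floor. In spleens alone 8 of 12 reached it (66.7% called), with TRBJ2-2, TRBJ2-3 and TRBJ2-4 among them. TRBJ2-1 was longer in 5 of 6 mice by 0.646 ± 0.367 bases (SE, n = 6), the exception being WT replicate 1, and TRBJ2-5 differed by -0.334 ± 0.186 bases (SE, n = 6), with exact sign-flip p of 0.156 and 0.0938. Between KO and WT mice, the CDR3 length of the members differed by -0.35 (TRBJ2-4) to 0.62 bases (TRBJ2-1), and limma called 0 of 12 segments (0% called, 0 at an unadjusted p under 0.05, smallest adjusted p of a member 0.911).

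The D segment next to the J segment separated the 2 clusters. Of the member clonotypes with a D hit, TRBD2 was the best hit in 58.7% ± 5.67 for TRBJ2-3, 58.0% ± 5.05 for TRBJ2-4, 56.2% ± 4.79 for TRBJ2-1, 55.4% ± 2.91 for TRBJ2-5 and 45.1% ± 9.03 for TRBJ2-2 (SD, n = 6 mice). In clonotypes with a TRBJ1 segment, which lies upstream of TRBD2, it was 8.64% ± 1.83, which gives a level of misassigned D calls. No member mouse value was under 35.3%, and no TRBJ1 mouse value, pooled over its segments, was above 10.3%.

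TRBD2 was more frequent with TRBJ2-3 (by 18.3 ± 2.42 percentage points), TRBJ2-4 (17.4 ± 2.09 percentage points), TRBJ2-1 (15.8 ± 2.19 percentage points) and TRBJ2-5 (15.2 ± 1.33 percentage points) than with all other J segments, in 6 of 6 mice each (SE, two-sided exact sign-flip p = 0.03125, the smallest possible, adjusted p = 0.0341). The other J segments included those of TRBJ1, which lie upstream of TRBD2, so a higher share in a TRBJ2 segment follows largely from the locus. The test therefore does not single out the members. TRBJ2-7 had a higher mean TRBD2 share than any member, 61.0% ± 5.04 (SD, n = 6 mice). Of the 12 segments 11 passed (91.7% called), 5 of them with more and 6 with less TRBD2, so a count of 4 of 5 members is near the background. The segment that did not pass was TRBJ2-2, at 2.93 ± 3.93 percentage points and in 4 of 6 mice (exact sign-flip p = 0.62). With only 5 mice no call is possible, and weighted by UMIs 0 of 12 passed. In TRBJ2-2 the values were 41.4, 35.3 and 44.8 in WT replicates 1, 3 and 4 and 42.4, 44.4 and 62.1 in KO replicates 1, 2 and 3, so KO replicate 3 stood apart. The best D hit was tied in score in 8.40% (TRBJ2-1) to 11.1% (TRBJ2-3) of the members' D calls. Between KO and WT, 0 of 12 segments passed (limma on the log2 ratio of TRBD2 to TRBD1, 0% called, 0 at an unadjusted p under 0.05).

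**Figure D4:**
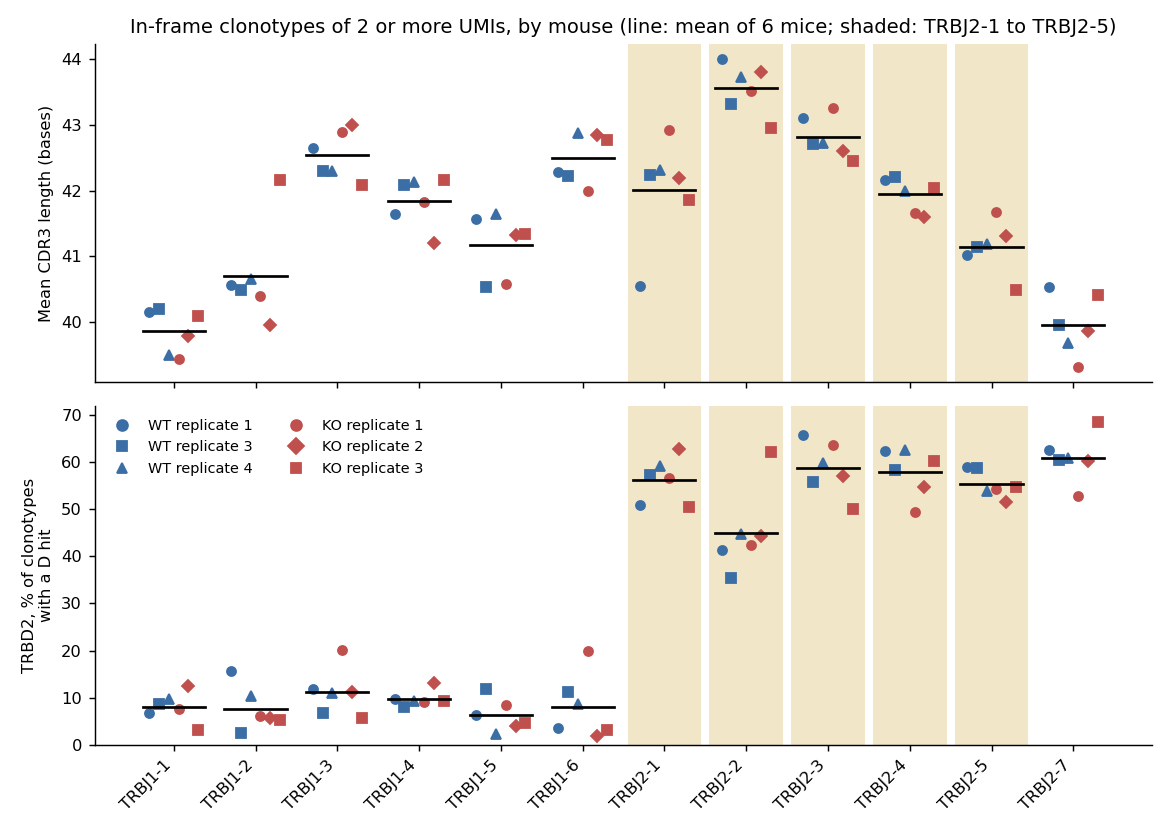
Mean CDR3 length in bases (top) and the percent of clonotypes with a D hit whose best hit is TRBD2 (bottom), per J segment, with 1 point per mouse and a line at the mean of 6 mice. The length axis does not start at 0. TRBJ2-2 has the longest mean CDR3, 43.6 bases, and the lowest TRBD2 share of the TRBJ2 segments, 45.1%, while the TRBJ1 means run up to 11.1%.

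Out-of-frame rearrangements, which code for no receptor and are carried by cells with a productive second allele, give a view of usage before selection on the protein. Each library held 15 to 793 such clonotypes of at least 2 UMIs. Frame was set here by CDR3 length alone. In-frame clonotypes with a stop codon, which code for no receptor either, and clonotypes with other than the germline J end were therefore kept. TRBJ2-1 formed 12.9% ± 4.20 of out-of-frame and 10.3% ± 0.668 of in-frame clonotypes (SD, n = 6), and it was higher out of frame in 6 of 6 mice, by 0.0739 to 9.95 percentage points. TRBJ2-2 was the reverse, with 3.71% ± 1.35 of out-of-frame and 5.52% ± 0.888 of in-frame clonotypes, and lower out of frame in 5 of 6 mice. Neither passed (exact sign-flip p = 0.03125 and 0.0625, adjusted p = 0.250 for both), and 0 of 12 segments did (0% called, 1 at an unadjusted p under 0.05). The TRBJ2-1 difference was under 1 percentage point in the 3 WT mice and rested most on KO replicate 3, whose mLN held 15 out-of-frame clonotypes in all. For TRBJ2-3, TRBJ2-4 and TRBJ2-5 the differences were -0.331, -1.27 and -0.0378 percentage points.

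The ends of the CDR3s gave a second readout of the same segments. Between 19.2% (TRBJ2-5) and 25.7% (TRBJ2-4) of a member's clonotypes ended in 9 bases other than the germline ones, but these held only 1.30% to 1.75% of its UMIs, and 98.6% to 99.5% of them were clonotypes of 1 UMI. Among clonotypes of 1 UMI, the 7 libraries with many unusual ends had 17.8% to 34.4% of them in every member, and the other 5 had 0% to 20%. Among clonotypes of at least 2 UMIs in these 7 libraries, the share was 0.533% to 1.76%. The highest value of the 5 rests on few clonotypes, 5 of 1 UMI for TRBJ2-2 in the mLN of KO replicate 3.

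Most unusual ends, 72.58% to 79.6% per member, differed from the germline end at a single base, and the frequent ones are shown because 4 of the 5 members shared a form. Positions are counted from 1 at the 5′ end of the 9 bases, with the germline base first. The most frequent change was T5A in TRBJ2-1 (709 clonotypes), C3G in TRBJ2-2 (293), T6C in TRBJ2-3 (546), T1C in TRBJ2-4 (669) and A2T in TRBJ2-5 (452). Those of TRBJ2-2, TRBJ2-3, TRBJ2-4 and TRBJ2-5 all gave CTGTACTTT, which is the germline end of none of the 12 segments, and that in TRBJ2-1 gave CAGTACTTC, the germline end of TRBJ2-7. The form CTGTACTTT was not confined to members, since the most frequent change of TRBJ1-6 (C3G, 115 clonotypes) gave it too. In 87.0% to 91.2% of the ends with a single change, the new base was one that another segment carries at that position, where 12 of the 27 possible changes (44.4%) lead to such a base. In the segments other than the members it was 87.0% to 95.4%. Clonotypes with unusual ends took no part in the values on CDR3 length, trimming and D segments.

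**Figure D5:**
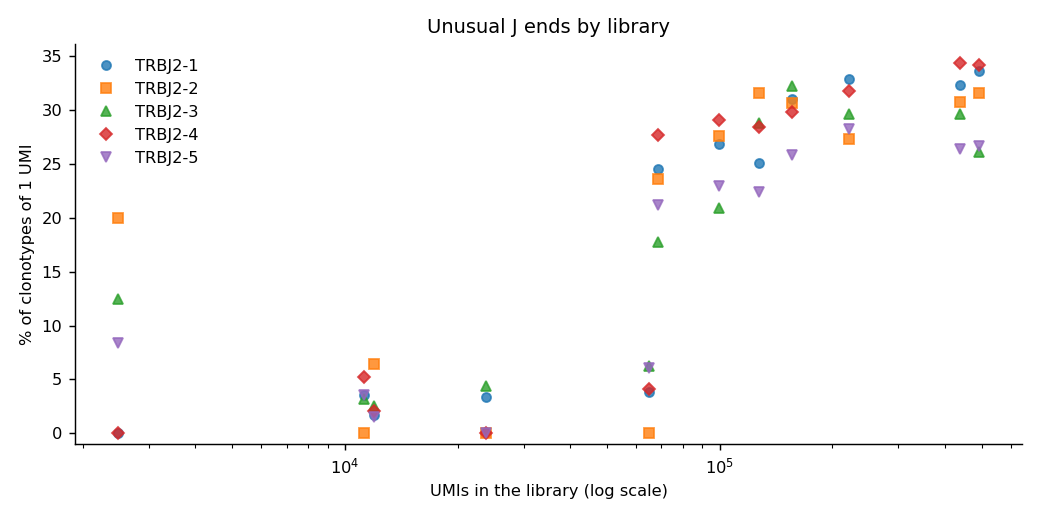
Percent of a member's clonotypes of 1 UMI that end in other than the germline 9 bases, against the number of UMIs in the library (log scale), with 1 point per member and library. The 7 deeper libraries lie at 17.8% to 34.4% for all 5 members.

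Across the 12 libraries, which come in pairs from 6 mice, the segment whose share of UMIs ran most alike was TRBV8 (r = 0.58) for TRBJ2-1, TRBV19 (r = 0.80) for TRBJ2-2, TRBJ2-2 (r = 0.66) for TRBJ2-3, TRBJ1-4 (r = 0.81) for TRBJ2-4 and TRBV12-1 (r = 0.82) for TRBJ2-5, by Pearson correlation of log2(percent + 0.1) over 36 other V and J segments. TRBJ2-1 ran opposite to TRBJ2-2 (r = -0.83) and TRBJ2-3 (r = -0.75). These are descriptions, since all shares of a library sum to the same total and the libraries differ in depth.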

How the data were processed

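TCR beta cDNA of 12 libraries from 6 mice was primed in the constant region and amplified by 5′ RACE with UMIs. The authors grouped reads by UMI with MIGEC and aligned and assembled clonotypes with MiXCR at default settings, and tool versions and the germline reference were not given in the sources used here. The deposited clonotype count was taken as the number of UMIs, since it is a whole number with a different total in each library, and the deposited fraction is that count over the library total. No downsampling had been applied to these tables.

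UMIs were summed per J segment, taken as the gene named first among the J hits. Of 14 J segments, the 12 that reached 10 UMIs in 3 or more libraries were tested with the quasi-likelihood test of edgeR 4.0.16, with library totals as library sizes. The mouse was a block where organs were compared. CDR3 properties were averaged per mouse and tested with limma 3.58.1 or by exact sign-flip tests over 6 mice (64 sign patterns). P-values were adjusted by Benjamini-Hochberg over all segments tested. DESeq2 1.42.0, R 4.3.3, Python 3.11.15 and scipy 1.17.1 were also used. A clonotype counted as having its germline J end when its last 9 CDR3 bases were those of the segment, and 10% of 1-UMI clonotypes divided the kinds of library. Germline sequences came from RefSeq on GRCm38.p6.

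Replicates of a group were separate mice of 1 experiment. On simulated data for 12 segments, edgeR recovered 97.3% of 4-fold changes in spleens and 86.7% in mLN, and limma 74.7% of changes of 1 base in CDR3 length. The largest differences of a member between KO and WT were smaller, 0.68 on the log2 scale of usage and 0.62 bases. Changes of that size were not simulated, so these rates do not cover them. The segments and rules were chosen with earlier results of these data known. All members were named in each comparison, other segments when they stood next to a member in the order or passed a test, and for each member its 3 most frequent V segments and its largest clonotype in a mouse. Alternatives covered scaling, filters, clonotypes in place of UMIs, single organs, and each mouse left out.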

Additional observations from a re-analysis of the deposited data

Results flagged for a closer look

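In 23 sets of 6 mouse values, a mouse far from the others was found in 2, where chance gives about 1 in 20. In the share of TRBD2 with TRBJ2-2 less that with all other J segments, KO replicate 3 stood at 21.3 percentage points, while the other 5 mice lay between -7.07 and 2.84. In the share of TRBJ2-1 among out-of-frame less in-frame clonotypes, KO replicate 3 stood at 9.95 percentage points and the others between 0.0739 and 3.16. The mLN library of this mouse is the smallest, with 2488 UMIs. From its spleen alone, KO replicate 3 stood at 6.9995 percentage points for TRBD2 with TRBJ2-2 and at 6.37 for TRBJ2-1 out of frame, still the highest of the 6 mice in both, with a gap of 0.295 and 0.510 of the whole range, under the size that marks a mouse as far from the others.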

How the results depend on the processing

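Of 960 values recomputed over 69 results, 797 held. For a member or a pair with a member, this means the same direction and side of the threshold. For the count of called segments in a comparison, it means an equal or similar count. In the test of KO against WT on UMIs no member passed under edgeR with any scaling, filter or left-out mouse. DESeq2 called 2 segments in the spleen. Signs turned for 104 values, none of them called before or after, and the causes were not tested. Depth limits most what the mLN of KO replicate 3 can show, where a count of 0 allows a share of up to 0.121%.

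The log2 fold changes of segment usage (KO against WT in each organ, mLN against spleen, and the difference of the genotype effects) turned sign as follows. With DESeq2 the mLN values were 0.12 (TRBJ2-1) and 0.013 (TRBJ2-2), the organ values -0.022 (TRBJ2-1) and -0.0064 (TRBJ2-3) and the difference of effects 0.15 (TRBJ2-2). TMM scaling gave 0.10 (TRBJ2-1) in the mLN and -0.077 (TRBJ2-1) and -0.063 (TRBJ2-3) between organs, and in-frame clonotypes alone gave -0.0099 (TRBJ2-1). By clonotypes 2 segments were called in the mLN, with 0.12 (TRBJ2-2) there, 0.035 (TRBJ2-2) and -0.030 (TRBJ2-4) between organs and 0.11 (TRBJ2-3) for the difference of effects, which was -0.46 by UMIs. By clonotypes of at least 2 UMIs with a germline J end, an alternative added after seeing the data, 1 was called in the mLN, with 0.10 (TRBJ2-4) and -0.034 (TRBJ2-5) in the spleen, 0.023 (TRBJ2-1), 0.15 (TRBJ2-2) and -0.024 (TRBJ2-5) in the mLN, 0.010 (TRBJ2-2) and -0.051 (TRBJ2-4) between organs and 0.059 (TRBJ2-1), 0.070 (TRBJ2-2) and 0.22 (TRBJ2-3) for the difference of effects.

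With each mouse left out in turn, the log2 fold changes of KO against WT in the spleen ran over -0.39 to 0.15 (TRBJ2-2), -0.36 to 0.11 (TRBJ2-4) and -0.036 to 0.18 (TRBJ2-5), those in the mLN over -0.89 to 0.46 (TRBJ2-1), -0.38 to 0.29 (TRBJ2-2) and -0.055 to 0.62 (TRBJ2-3), those of mLN against spleen over -0.12 to 0.19 (TRBJ2-1), -0.19 to 0.023 (TRBJ2-2) and -0.0099 to 0.19 (TRBJ2-3) and the difference of effects over -0.36 to 0.21 (TRBJ2-2). On clonotypes with each mouse left out, 0 to 2 segments were called in the mLN, with ranges of -0.20 to 0.15 (TRBJ2-1), 0.023 to 0.20 (TRBJ2-2) and -0.034 to 0.075 (TRBJ2-5), where TRBJ2-2 was 0.14, 0.091 and 0.16 without WT replicate 1, WT replicate 4 and KO replicate 3.

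For KO against WT in CDR3 length, weighting by UMIs gave -0.150 (TRBJ2-1), 0.339 (TRBJ2-4) and -0.369 (TRBJ2-5) bases in place of 0.623 (TRBJ2-1), -0.351 (TRBJ2-4) and 0.043 (TRBJ2-5), the mLN alone -0.0994 (TRBJ2-5), and leaving out a mouse -0.321 to 0.083 (TRBJ2-3) and -0.215 to 0.381 (TRBJ2-5). For retained J bases, spleens alone called 2 segments (TRBJ1-5 and TRBJ1-6), the mLN alone gave 0.208 (TRBJ2-4), weighting by UMIs -0.026 (TRBJ2-5), clonotypes of 1 UMI 0.235 (TRBJ2-4) and leaving out a mouse -0.021 to 0.403 (TRBJ2-1), -0.168 to 0.220 (TRBJ2-4) and -0.079 to 0.165 (TRBJ2-5). For the log2 ratio of TRBD2 to TRBD1, weighting by UMIs gave -0.37 (TRBJ2-2) and 0.19 (TRBJ2-4), clonotypes of 1 UMI -0.047 (TRBJ2-2) and leaving out a mouse -0.13 to 0.23 (TRBJ2-1).

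In the order of usage, TRBJ2-1 less TRBJ1-1 was -0.577 percentage points by clonotypes and -0.058 in spleens. TRBJ1-1 less TRBJ2-5 was -1.46 by clonotypes and -1.47 in the mLN, and TRBJ1-2 less TRBJ2-2 was -0.225 by clonotypes, -0.500 in spleens and -0.066 with KO replicate 3 taken from its spleen alone (added after seeing the data). Leaving out a mouse gave -0.450 to 3.35, -1.09 to 1.13 and -0.377 to 0.829 for these 3 pairs and -0.340 to 1.89 for TRBJ2-4 less TRBJ2-3.

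For CDR3 length against the other segments, 8 segments passed in spleens alone, with clonotypes of 1 UMI, and with KO replicate 3 from its spleen alone, and TRBJ2-1 weighted by UMIs was -0.215 bases. For TRBD2, 0 segments passed when weighted by UMIs, and 0 passed without any 1 mouse, since 5 mice allow no p under 0.0625. TRBJ2-2 then ran over -0.734 to 4.93 percentage points. The out-of-frame difference of TRBJ2-5 was 1.33 in the mLN, 0.0074 weighted by UMIs, 0.399 with clonotypes of 1 UMI and 0.175 without unusual ends, and leaving out a mouse gave -0.931 to 0.543, and -0.799 to 0.031 for TRBJ2-3.

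WT and KO share replicate numbers 1 and 3 only. Deviations from the group means of same-numbered mice correlated at 0.10 and 0.037 in the spleen and -0.73 and -0.27 in the mLN. All libraries of WT and KO replicate 1 were of the kind with few unusual ends. Those of replicate 3 had many, except the mLN of KO. Whether same-numbered mice shared a batch was not tested. Fits with a replicate block changed no call of a member, and turned the sign to 0.0031 (TRBJ2-1) and -0.054 (TRBJ2-3) in mLN usage, -0.049 (TRBJ2-5) in retained bases and -0.033 (TRBJ2-1) in the TRBD2 ratio.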

Other observations

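The constant region called for a clonotype did not follow its J cluster. TRBC2 was listed for 53607 of the 53898 clonotypes of TRBJ2-1 to TRBJ2-5, TRBC1 for 33 and neither for 258. Of the TRBJ1 clonotypes, 39396 also listed TRBC2 and 113 listed TRBC1, so these calls were not used.

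TRBJ2-6, the segment between TRBJ2-5 and TRBJ2-7, was seen at 1 to 3 UMIs in 5 libraries and was not tested.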
